A study of Mus musculus with 8 samples.

Results

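The genes described here are 10 members of the circadian clock and its direct output, Per1, Per2, Per3, Cry1, Cry2, Nr1d1, Nr1d2, Dbp, Ciart and Tef. They were chosen by name, and a probe was taken for a gene when the accession in the array design matched that gene. All 10 genes had a probe, 18 probes in all, out of 22911 named genes and 56605 probes on the array. All 18 probes were well above background on each of the 8 arrays.

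Whole retinas of aged mice were hybridized to one-color Agilent arrays, 4 with samples labelled homozygous Mrp4 knockout and 4 with wild-type samples. All mice were between 46 and 55 weeks old by the labels and had a C57BL/6J background by the methods, and the methods name anesthesia for all procedures and no other treatment of either group. Tissue came from 3 mice by the methods, which leave unclear if that number went into every sample, so the p-values measure only the spread between these samples. Mice were kept under a light/dark cycle of equal phases, and the hour at which retinas were taken is not given in the sources used here. The comparison therefore addressed 2 questions, whether clock genes differed between the genotypes and whether their levels placed the arrays at different points of the daily cycle.

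In the daily loop, CLOCK and ARNTL (also called BMAL1) bind E-boxes and switch on the Per, Cry, Nr1d, Dbp, Tef and Ciart genes. The PER, CRY and CIART proteins then repress CLOCK and ARNTL, the NR1D receptors repress Arntl, and DBP and TEF act on D-boxes in other promoters. In many mouse tissues Arntl is therefore low when Nr1d1, Dbp and the Per genes are high, and the retina holds a clock of its own that times dopamine release and parts of photoreceptor metabolism.

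Promoter windows of 250 bases that end at the base before the transcription start were matched for 9 of the 10 genes, 11 windows in all, and Per2 was not matched. An E-box (CACGTG, which reads the same on both strands) was found in 5 of the 11 windows, against 6.02% of 32851 windows in the table. Those windows belonged to 4 of the 9 genes. The related E'-box (CACGTT on either strand) was found in 3 of the 11 windows, those of Cry1, Cry2 and Nr1d1, against 3.85% of all windows. A D-box (TTATGTAA on either strand) was found in 1 of the 11 windows, that of Per3, in 2 copies, against 0.819% of all windows. A core bound by ROR and NR1D receptors (TAGGTCA, either strand) and the cAMP response element (TGACGTCA) were found in none of the 11 windows, against 2.23% and 1.55% of all windows. No match overlapped another. A match is a stretch of letters and was not measured as a bound site.

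A window is shown for 6 of the genes that carry an element through which the loop is known to act. The sequences are from RefSeq on GRCm38.p6, each on the strand of its gene from 5′ to 3′, with E-boxes, E'-boxes and D-boxes in capitals.
Per1, chr11:69098699-69098948, plus strand: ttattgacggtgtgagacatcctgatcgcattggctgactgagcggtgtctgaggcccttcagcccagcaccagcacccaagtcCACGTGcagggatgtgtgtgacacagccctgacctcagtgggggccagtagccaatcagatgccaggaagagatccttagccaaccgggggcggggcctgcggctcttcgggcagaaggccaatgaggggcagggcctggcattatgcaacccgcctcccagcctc
Per3, chr4:151044666-151044915, minus strand: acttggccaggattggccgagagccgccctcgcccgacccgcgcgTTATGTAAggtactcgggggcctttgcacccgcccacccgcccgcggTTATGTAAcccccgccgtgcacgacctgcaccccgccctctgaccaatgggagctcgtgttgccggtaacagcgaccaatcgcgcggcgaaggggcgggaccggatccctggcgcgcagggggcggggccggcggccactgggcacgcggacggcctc
Cry1, chr10:85185055-85185304, minus strand: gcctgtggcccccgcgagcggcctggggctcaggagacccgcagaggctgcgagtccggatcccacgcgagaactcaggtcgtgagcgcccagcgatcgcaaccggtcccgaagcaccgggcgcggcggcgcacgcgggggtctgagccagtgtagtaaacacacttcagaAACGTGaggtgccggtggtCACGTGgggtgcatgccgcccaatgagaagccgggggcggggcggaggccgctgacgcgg
Nr1d1, chr11:98775378-98775627, minus strand: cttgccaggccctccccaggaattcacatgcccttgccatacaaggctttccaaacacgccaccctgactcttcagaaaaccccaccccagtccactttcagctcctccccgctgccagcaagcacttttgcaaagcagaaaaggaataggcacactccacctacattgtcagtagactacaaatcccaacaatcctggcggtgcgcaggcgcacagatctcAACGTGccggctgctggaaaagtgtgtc
Ciart, chr3:95882229-95882478, minus strand: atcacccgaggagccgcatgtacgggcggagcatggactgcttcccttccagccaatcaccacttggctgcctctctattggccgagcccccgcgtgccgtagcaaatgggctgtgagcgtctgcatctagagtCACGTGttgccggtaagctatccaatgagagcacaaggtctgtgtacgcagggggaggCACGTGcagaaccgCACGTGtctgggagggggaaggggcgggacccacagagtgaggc
Tef, chr15:81811164-81811413, plus strand: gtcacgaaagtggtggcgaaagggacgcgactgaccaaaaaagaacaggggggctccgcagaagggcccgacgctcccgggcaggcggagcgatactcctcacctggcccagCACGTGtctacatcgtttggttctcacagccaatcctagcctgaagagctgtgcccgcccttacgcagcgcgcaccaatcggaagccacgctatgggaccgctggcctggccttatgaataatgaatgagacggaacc
In Ciart the 3 E-boxes began 116, 58 and 44 bases before the start, and in Cry1 an E'-box at 79 bases preceded an E-box at 60 bases. The D-boxes of Per3 began 205 and 158 bases before its start.

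The targeted gene went against its label. Abcc4, which encodes MRP4, was at a normalized log2 signal of 10.75 ± 0.09 (SD, n = 4) under the Mrp4-null label, and the wild-type value was 6.83 ± 0.29 (SD, n = 4). It was 3.92 higher on the log2 scale on the arrays labelled Mrp4-null (SE 0.14, limma adjusted p = 1.36e-05). Every direction given here is that of the labels. All 35 genes chosen as markers of rods, cones, bipolar, Muller, ganglion, amacrine and horizontal cells were well above background on all 8 arrays. Of their 58 probes limma called 0, 9 had an unadjusted p under 0.05 (6.46% of all retained probes did) and 10 did not overlap between genotypes (4.79% of all). Among these, both probes of Arr3, the cone arrestin, were higher under the Mrp4-null label, and both of Aqp4, the Muller glia water channel, lower. At the probe with the highest mean signal, 2 cone genes were higher and 4 lower, and 2 Muller genes were higher and 3 lower. For bipolar cells 5 of 6 genes had higher means, and for ganglion cells 1 was higher and 4 lower. Rod genes were 5 higher and 3 lower, and amacrine and horizontal cell genes 2 higher and 3 lower. All 8 lens genes had lower means under the Mrp4-null label, by a median log2 fold change of -1.47, with means per array of 6.24 to 9.17 against 7.82 to 10.45 in wild-type. Of their 12 probes, limma called 0 (fold change of 1.5 or more and adjusted p under 0.05), 5 had an unadjusted limma p under 0.05, and the local pooled error test called 12, against 0.626% of all probes it tested. All 7 retained pigment epithelium genes had higher means under the Mrp4-null label, by a median log2 fold change of 0.21, with means per array of 7.35 to 7.81 against 7.14 to 7.73, and for 4 ciliary body genes 11.14 to 11.41 against 10.79 to 11.08. That gap lay in Optc, at a log2 fold change of 1.53 (SE 0.34, limma adjusted p = 0.158), a gene the local pooled error test called, while the median of the 4 genes was 0.0066. Blood genes (9.51 to 10.62 against 9.43 to 10.19) and skeletal muscle genes (6.08 to 6.46 against 6.12 to 6.36) overlapped. The part of such tissue in the clock values was not tested. In whole retina, fewer cells of a type and less RNA per cell cannot be told apart. A single slide carried the 8 arrays, the genotypes filling separate rows, and row and genotype cannot be told apart. The 75th percentile of the signal lay between 678 (Mrp4-null 2) and 1082 (wild-type 2), with 706 on wild-type 3, before quantile normalization.

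No clock gene was called changed between the genotypes. Calls required both a 1.5-fold difference or more and an adjusted p under 0.05 over all 37085 retained probes, which 202 probes met (0.545%), 95 of them higher (0.256%) and 107 lower (0.289%) under the Mrp4-null label. Of the 18 clock probes 0 were called by limma, 0 by the local pooled error test, which called 0.626% of all probes, and 1 had an unadjusted p under 0.05, against 6.46% of all retained probes. Taking for each gene its probe with the highest mean signal, 9 of 10 genes had lower means under the Mrp4-null label, and the median log2 fold change was -0.07. Over all retained probes the median was -0.01, with 17339 higher and 19746 lower. Leaving out Mrp4-null 2 turned the split to 5 lower and 5 higher. The 95% interval of the difference stayed within 1.5-fold for 8 of these 10 probes and for 13 of all 18.

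**Figure D1:**
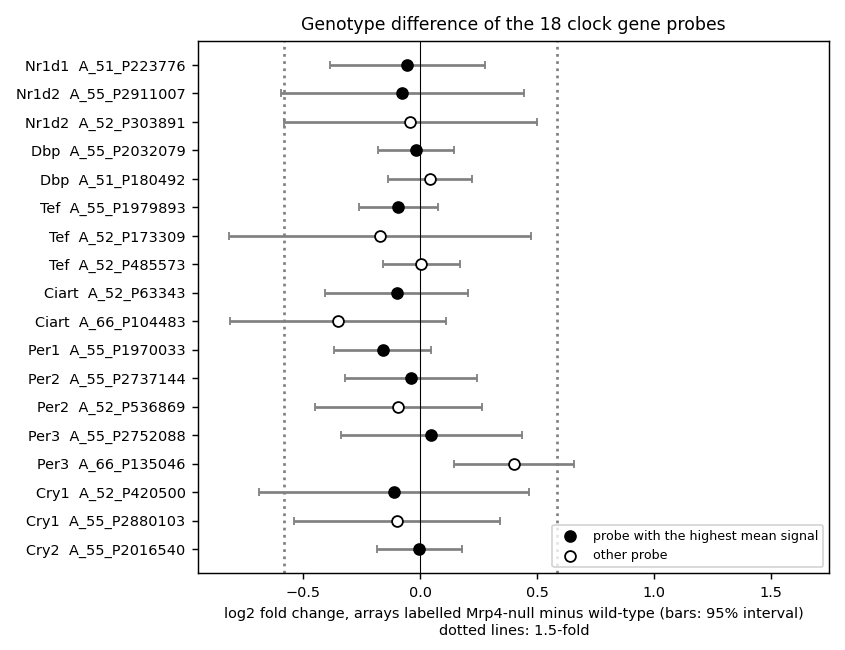
Log2 fold change of each clock probe, arrays labelled Mrp4-null minus wild-type, with its 95% interval as bars and 1.5-fold as dotted lines (4 arrays each). All intervals but that of the second Per3 probe, A_66_P135046, include 0, and 13 of 18 lie within the dotted lines.

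Values of single arrays are normalized log2 signals, given in the order of sample numbers 1 to 4. Of the period genes, whose proteins form the repressor with the cryptochromes, Per1 (A_55_P1970033) was at 13.21, 13.37, 13.29 and 13.48 under the Mrp4-null label and at 13.41, 13.58, 13.41 and 13.60 in wild-type. Its arrays overlapped between genotypes, since Mrp4-null 4 lay above wild-type 1 and 3. The log2 fold change was -0.16 (SE 0.09, limma adjusted p = 0.934), with a 95% interval from -0.37 to 0.05. Per1 is also known as a gene that light and cAMP signals induce.

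Per2 (A_55_P2737144) was at 11.04, 10.61, 10.72 and 10.96 under the Mrp4-null label and at 10.73, 10.92, 10.78 and 11.06 in wild-type. Both genotypes covered nearly the same range, and the log2 fold change was -0.04 (SE 0.12, 95% interval -0.32 to 0.24, limma adjusted p = 1.00). A second Per2 probe, A_52_P536869, was dim, at 4.23 to 4.91 over the 8 arrays, and its values ran against those of the first (r = -0.269 over 8 arrays, a description).

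For Per3, a period gene that the core loop can run without, the probes differed. The brighter one, A_55_P2752088, was at 10.24, 10.11, 10.50 and 10.22 under the Mrp4-null label and at 10.66, 10.15, 9.84 and 10.22 in wild-type. Wild-type 1 was the highest and wild-type 3 the lowest of all 8, so the genotypes overlapped fully, with a log2 fold change of 0.05 (SE 0.17, limma adjusted p = 1.00). The other, A_66_P135046, was at 7.89, 8.11, 7.91 and 7.74 under the Mrp4-null label and at 7.60, 7.53, 7.64 and 7.28 in wild-type. This was the only clock probe whose arrays did not overlap between genotypes, 1 of 18, against 4.79% of all retained probes, or 2.44% with the arrays labelled Mrp4-null higher. Its log2 fold change was 0.40 (SE 0.11, 95% interval 0.14 to 0.66, limma adjusted p = 0.337), so it was not called. In the array design these probes carry different RefSeq transcript records of Per3, and their values had r = 0.00 over the 8 arrays.

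Of the cryptochromes, the light-independent repressors of CLOCK and ARNTL in mammals, Cry1 (A_52_P420500) was at 7.87, 6.79, 7.20 and 7.82 under the Mrp4-null label and at 7.18, 7.78, 7.44 and 7.74 in wild-type. Mrp4-null 2 was the lowest and Mrp4-null 1 the highest, so the range within 1 genotype held the whole of the other. The log2 fold change was -0.11 (SE 0.25, 95% interval -0.69 to 0.47, limma adjusted p = 1.00), an interval that reached past 1.5-fold. A second Cry1 probe, A_55_P2880103, was highest on Mrp4-null 2, at 7.63, and lowest on Mrp4-null 1, at 6.78, the reverse of the first (r = -0.650). Cry2 (A_55_P2016540) was at 13.92, 13.83, 13.96 and 13.94 under the Mrp4-null label and at 14.02, 13.93, 13.78 and 13.93 in wild-type. Its 8 values lay within 1.18-fold of each other and overlapped between genotypes, with a log2 fold change of -0.00 (SE 0.08, 95% interval -0.19 to 0.18).

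Nr1d1 and Nr1d2 encode REV-ERB alpha and beta, the nuclear receptors that bind heme and repress Arntl. Nr1d1 (A_51_P223776) was at 10.02, 10.12, 10.30 and 9.75 under the Mrp4-null label and at 10.31, 10.02, 10.24 and 9.84 in wild-type. In each genotype sample 4 was the lowest, and the ranges overlapped almost wholly, with a log2 fold change of -0.06 (SE 0.15, 95% interval -0.39 to 0.28, limma adjusted p = 1.00). Nr1d2 (A_55_P2911007) was at 12.55, 11.73, 12.03 and 12.66 under the Mrp4-null label and at 12.18, 12.59, 11.98 and 12.53 in wild-type. Mrp4-null 4 was the highest array for Nr1d2 and the lowest for Nr1d1, so these paralogs did not order the arrays alike. The log2 fold change of Nr1d2 was -0.08 (SE 0.23, 95% interval -0.60 to 0.44, limma adjusted p = 1.00). Its second probe, A_52_P303891, ordered the arrays much as the first did (r = 0.965), from 10.56 on Mrp4-null 2 to 11.45 on Mrp4-null 4. Nr1d2 was thus read alike by both probes as varying between samples of a genotype, by 1.90-fold over the 8 arrays at the first probe.

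Dbp and Tef encode PAR bZIP transcription factors that bind D-boxes, and Dbp is among the most strongly cycling transcripts of many mouse tissues. Dbp (A_55_P2032079) was at 14.78, 14.75, 14.77 and 14.63 under the Mrp4-null label and at 14.74, 14.77, 14.77 and 14.71 in wild-type. The 8 arrays lay within 1.11-fold of each other, and sample 4 was again the lowest in each genotype. Its log2 fold change was -0.02 (SE 0.07, 95% interval -0.18 to 0.14, limma adjusted p = 1.00). Before normalization between arrays, the processed signal of this probe was lowest on Mrp4-null 2, at 22638, and highest on wild-type 2, at 33091, the arrays with the lowest and the highest 75th percentile. The second Dbp probe, A_51_P180492, ran from 14.20 to 14.44, within 1.18-fold, with a log2 fold change of 0.04 (SE 0.08).

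Tef (A_55_P1979893) was at 15.25, 15.22, 15.30 and 15.33 under the Mrp4-null label and at 15.38, 15.38, 15.26 and 15.45 in wild-type. Wild-type 3 lay within the range of the other genotype, and the log2 fold change was -0.09 (SE 0.07, 95% interval -0.26 to 0.08, limma adjusted p = 1.00). A second probe, A_52_P485573, stayed within 1.11-fold over the 8 arrays. The dimmest, A_52_P173309, ranged 2.46-fold, from 6.40 on Mrp4-null 1 to 7.70 on Mrp4-null 2. The brightest probe and the other probes carry different RefSeq transcript records of Tef. Those other probes share a record, yet had r = -0.253 over the 8 arrays. With the brightest probe, r was -0.325 for A_52_P173309 and -0.185 for A_52_P485573. Among all pairs of probes of the same clock gene, 5 of 9 had a negative r.

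Ciart, also called Chrono, encodes a repressor of CLOCK and ARNTL. Its probe A_52_P63343 was at 8.41, 8.21, 8.20 and 8.46 under the Mrp4-null label and at 8.09, 8.56, 8.38 and 8.65 in wild-type. Wild-type 1 was the lowest and wild-type 4 the highest, with a log2 fold change of -0.10 (SE 0.13, 95% interval -0.41 to 0.21, limma adjusted p = 1.00). Ciart, whose window holds 3 E-boxes, and Dbp, whose window holds none of the motifs searched, both overlapped between genotypes. The second Ciart probe, A_66_P104483, had the largest negative log2 fold change of the 18, -0.35 (SE 0.20, limma adjusted p = 0.942). It was at 5.93, 5.15, 5.80 and 6.08 under the Mrp4-null label and at 6.11, 6.38, 5.89 and 5.99 in wild-type, so that Mrp4-null 2 was far below and the others overlapped.

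**Figure D2:**
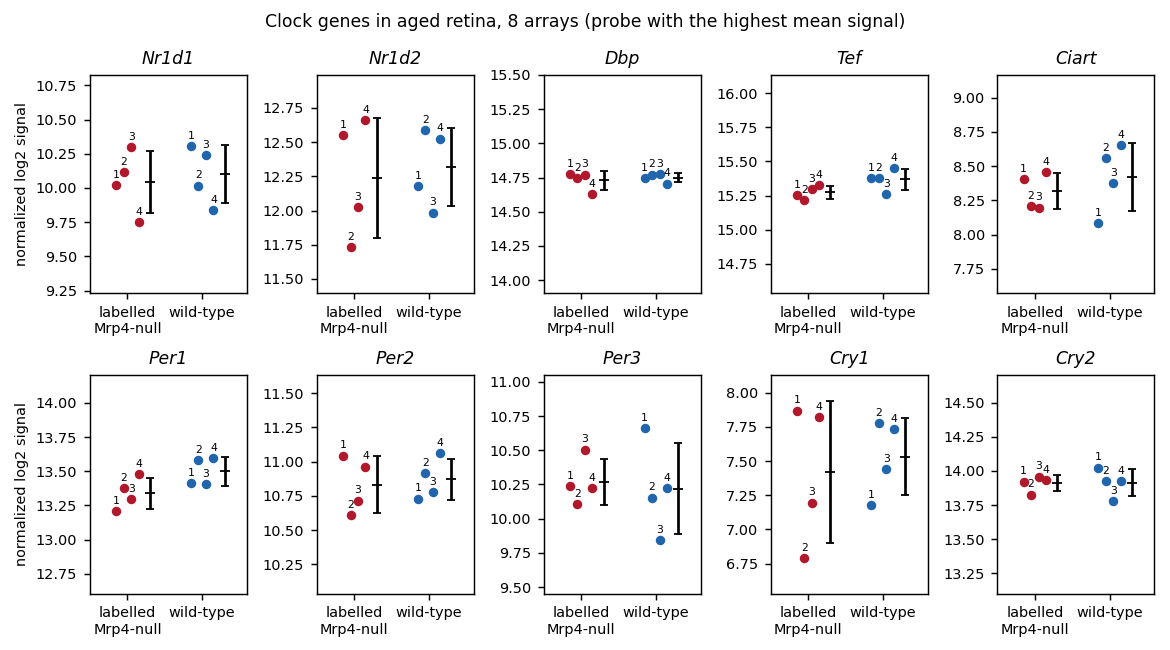
Normalized log2 signal of each of the 10 genes by array, at the probe with the highest mean signal. Points are arrays numbered by sample, bars are mean ± SD (n = 4), and each panel spans the same log2 range, so the wide scatter of Nr1d2 and Cry1 can be set against the narrow scatter of Dbp, Tef and Cry2.

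The spread between arrays of 1 genotype differed widely among the genes. Ranked by the within-genotype SD among all 37085 retained probes, Dbp lay at percentile 2.45, Tef at 4.75 and Cry2 at 9.88. Per1 lay at 19.7, Per2 at 47.0, Ciart at 54.0, Nr1d1 at 59.9 and Per3 at 70.5. The widest were Nr1d2 at 86.7 and Cry1 at 90.9. These percentiles were not matched for signal strength. The narrow probes were bright, with mean log2 signals of 15.32 for Tef, 14.74 for Dbp and 13.91 for Cry2. The means were 12.28 for Nr1d2 and 7.48 for Cry1. Rod genes, also bright, had a median percentile of 13.4. The part of signal strength in these ranks was not tested. Between the lowest and the highest of the 8 arrays, the 10 genes ranged 1.11-fold to 2.11-fold, and 7 of them stayed under 1.5-fold. Other probes of a gene did not always rank alike. The dimmest Tef probe, A_52_P173309, lay at percentile 94.1, the second Per3 probe at 38.7 and the second Ciart probe at 81.2. The second Nr1d2 probe, A_52_P303891, ranked much as the first did, at 88.4.

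**Figure D3:**
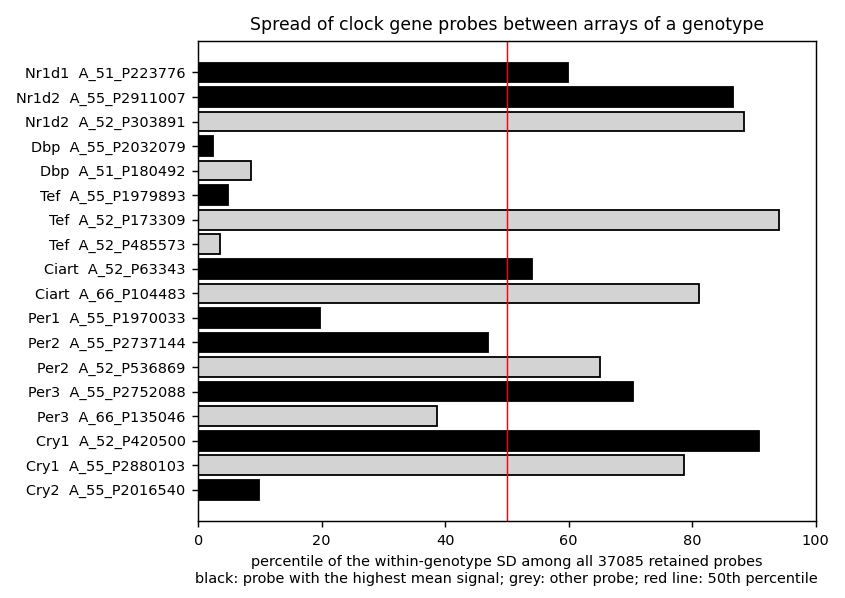
Percentile of each clock probe's within-genotype SD among all 37085 retained probes, with the red line at the 50th percentile. Both Dbp probes, 2 Tef probes and Cry2 lie under the 10th percentile, while both Nr1d2 probes, 1 Cry1 probe and 1 Tef probe lie above the 85th.

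Whether the arrays stood at different points of the cycle was read from Arntl, which runs opposite to most of these genes in a cycling tissue. Arntl (A_52_P267651) was at 11.71, 11.19, 11.61 and 11.69 under the Mrp4-null label and at 11.75, 11.75, 11.34 and 11.62 in wild-type. Mrp4-null 2 and wild-type 3 were the low arrays, 1 in each genotype, and the log2 fold change was -0.06 (SE 0.14, limma adjusted p = 1.00). Over the 8 arrays, 8 of the 10 genes had a positive correlation with Arntl and 2 a negative one, Nr1d1 (r = -0.247) and Dbp (r = -0.175). Of the 10 relations, 0 passed after Benjamini-Hochberg adjustment of the two-sided exact permutation p, and 2 had an unadjusted p under 0.05. The count depended on the scaling and on 1 array, since Nr1d2 passed with a shift to the 75th percentile (r = 0.854, adjusted exact permutation p = 0.0384), with cyclic loess (r = 0.830, adjusted exact permutation p = 0.0429) and without wild-type 1 (r = 0.897, adjusted exact permutation p = 0.0119).

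Nr1d2, a repressor of Arntl, had r = 0.803 with it (exact permutation p = 0.00811, adjusted p = 0.0811) and rho = 0.762 (exact p = 0.0368, adjusted p = 0.368). For Cry2 the values were r = 0.840 (exact permutation p = 0.0180, adjusted p = 0.0900) and rho = 0.452 (exact p = 0.267, adjusted p = 0.499). On deviations from the genotype means they were 0.800 for Nr1d2 and 0.847 for Cry2. Without Mrp4-null 2 and wild-type 3, the arrays farthest from the median of Arntl, r was 0.313 for Nr1d2 and 0.277 for Cry2, and 4 of the 10 relations kept their sign. Leaving out the farthest arrays narrows the range of Arntl, which by itself can lower r, and the part of this here was not tested. The 75th percentiles of the signal of those arrays, 678 and 706, were the lowest of their genotypes.

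The other Arntl probes gave another picture. They ran opposite to the first over the 8 arrays, with r = -0.908 for A_66_P127371 and r = -0.730 for A_55_P2735445, and with each other at r = 0.735. Against A_66_P127371, chosen as a second reading after the values were seen, 7 of the 10 genes had a negative r, Nr1d2 among them at -0.801, with a lowest adjusted exact permutation p of 0.116. Without the arrays farthest from the median of that probe, Mrp4-null 1 and Mrp4-null 2, 8 of the 10 relations kept their sign and r was -0.645 for Nr1d2. Against A_55_P2735445 it was 7 of 10 again, with a lowest adjusted exact permutation p of 0.509, and without Mrp4-null 2 and wild-type 3 only 3 of the 10 relations kept their sign, with r going from -0.597 to 0.156 for Nr1d2. The sign of the relation between the clock genes and Arntl thus depended on which probe stood for Arntl.

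**Figure D4:**
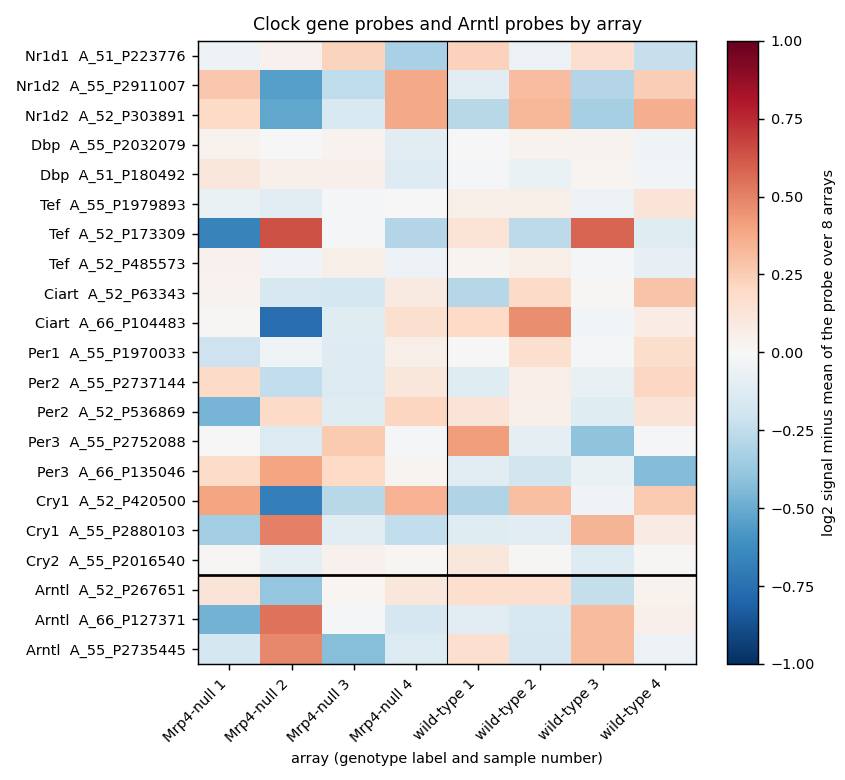
Log2 signal of each clock probe and of 3 Arntl probes on each array, minus the probe's mean over the 8 arrays (red above, blue below). Nr1d2, the brighter Cry1 probe and the first Arntl probe are low on Mrp4-null 2, where the second Cry1 probe, the dimmest Tef probe and the other Arntl probes are high.

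A single pattern ran through many probes of the array. The first principal component of the deviations from genotype means held 56.3% of the within-genotype variance of all retained probes. Its scores were 0.34, -0.63, -0.10 and 0.40 under the Mrp4-null label, against -0.12, 0.35, -0.39 and 0.15 in wild-type, so Mrp4-null 1, Mrp4-null 4, wild-type 2 and wild-type 4 lay on one side. Of the variance of Nr1d2 within genotypes 96.4% lay on it at the first probe and 89.6% at the second. The share was 82.8% and 76.6% for the Cry1 probes, with opposite sign, 73.6% for the brighter Per2 probe and 90.9% for the dimmest Tef probe, again with opposite sign to Nr1d2. It was 12.7% for the brighter Dbp probe, 10.1% for Per1 and 3.31% for the brighter Per3 probe. The median share was 41.7% over the 18 clock probes and 49.95% over all retained probes, and it was above 50% for 8 of 18 against 49.97% of all probes. The Arntl probes also lay on it, at 76.7%, and with opposite sign at 78.2% and 58.0%. The part of signal strength or RNA quality in this component was not tested.

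The rest of the clock pathway was read from lists of other genes, and no gene of these lists was called by limma with genotype as the only term or by the local pooled error test. With an intensity trend and robust variances, limma called 1, Ier2. Among the activators, 5 of 7 genes had a retained probe, 3 higher and 2 lower, and 0 of their 13 probes had an unadjusted p under 0.05. Clock, the partner of ARNTL, had a log2 fold change of 0.15 (SE 0.08, limma adjusted p = 0.930). All 10 modifiers were retained, kinases, ubiquitin ligase subunits and repressors that tune the loop, 2 higher and 8 lower, and 0 of their 21 probes had an unadjusted p under 0.05. Of these, Bhlhe40, a repressor that competes for E-boxes, was at 9.69, 8.68, 8.90 and 9.78 under the Mrp4-null label and at 9.02, 9.94, 9.14 and 9.61 in wild-type. The same 4 arrays that were high for Nr1d2 were the high ones here, with a log2 fold change of -0.17 (SE 0.30) between genotypes. Of the within-genotype variance of Bhlhe40, 86.8% lay on the first component, the pattern that ran through many probes of the array. Timeless had a log2 fold change of 0.11 (SE 0.09).

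All 7 other clock outputs were retained, 2 higher and 5 lower, and 0 of their 10 probes had an unadjusted p under 0.05. Hlf, a PAR bZIP factor like Dbp and Tef, was at 11.01, 12.21, 11.94 and 10.66 under the Mrp4-null label and at 11.96, 10.70, 11.82 and 10.90 in wild-type. The 4 arrays high for Nr1d2 were the low ones for Hlf, whose within-genotype SD lay at percentile 98.9, and its log2 fold change was 0.11 (SE 0.41, 95% interval -0.83 to 1.04). On the first component lay 84.5% of the within-genotype variance of Hlf, with opposite sign to Nr1d2. Nampt, the rate-limiting enzyme of NAD salvage, had a log2 fold change of -0.27 (SE 0.19), with 84.9% of its within-genotype variance on the first component.

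Of 8 genes known for rhythms in the retina, 6 had a retained probe, 4 higher and 2 lower at the probe with the highest mean signal. Drd4, the dopamine receptor of photoreceptors, had a log2 fold change of 0.22 at that probe, A_51_P283499 (SE 0.17), and Pdc, which encodes phosducin, one of 0.13 (SE 0.10). Of the 8 probes of these genes, 1 had an unadjusted p under 0.05, the second Drd4 probe, A_52_P196278. It was at 11.42, 11.48, 11.44 and 11.53 under the Mrp4-null label and at 11.31, 11.27, 11.22 and 11.25 in wild-type, without overlap. Its log2 fold change was 0.21 (SE 0.07, limma adjusted p = 0.514), and it was not called. All 8 glucocorticoid response genes were retained, 3 higher and 5 lower, and 1 of their 10 probes had an unadjusted p under 0.05, a probe of Fkbp5. At that probe Fkbp5 had a log2 fold change of 0.25 (SE 0.11, limma adjusted p = 0.748) and Zbtb16 one of 0.36 (SE 0.22). Of 10 immediate early genes, which light or handling can induce in many tissues, 9 were retained, 6 higher and 3 lower, and 2 of their 10 probes had an unadjusted p under 0.05. These were probes of Ier2 and Junb, which both lie on chromosome 8. The part of light, handling or shared position in their values was not tested. Ier2 was at 9.40, 9.35, 9.35 and 9.63 under the Mrp4-null label and at 8.86, 9.02, 8.65 and 8.82 in wild-type. Its groups did not overlap, and its log2 fold change was 0.59 (SE 0.11, limma adjusted p = 0.0597, and 0.0435 with an intensity trend and robust variances, which called it). Junb had a log2 fold change of 0.44 (SE 0.16, limma adjusted p = 0.574).

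The pattern of Dbp over the arrays was set against 23626 named probes, as the correlation of deviations from genotype means over the 8 arrays, and 39 probes had r above 0.9. The 5 most alike were Nrap (0.972), Myo1c (0.958), Osgin1 (0.958), Osbpl5 (0.957) and Sardh (0.955). None of the other 9 clock genes reached them. Nr1d1 had r = 0.730 with Dbp, Per1 -0.724, Tef -0.570, Nr1d2 -0.463, Per2 -0.360, Ciart -0.358, Cry1 -0.320, Cry2 -0.206 and Per3 -0.03. The deviations of Dbp were within 1.11-fold over the arrays, and these values are a description.

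Among the 5 tested genes on either side of each clock gene, 0 of 10 were called, against 0.652% of all tested genes, a share at which so few neighbours show nothing about the clock genes. Nr1d2 lies on chromosome 14, the chromosome of Abcc4, where 20 of 558 tested genes were called (0.652% of all tested genes were), and its nearest called gene, Slc25a37, was 369 tested genes away. Per3 lies on chromosome 4, where 23 of 1015 tested genes were called, and its nearest called gene, Slc2a5, was 7 tested genes away.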

How the data were processed

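Scanner output of 8 arrays was analysed. The authors deposited, per the file headers, processed signal intensity per spot from Agilent Feature Extraction 11.0.1.1, background-subtracted and not normalized between arrays. Also deposited was a table of values, which held the mean processed signal intensity per probe. Spots marked as outliers (78 to 143 per array) were left out, the log2 signal was averaged per probe, and probes were kept if 1 genotype or both had them well above background wherever measured (3 arrays measured there, 2 in the other). The retained values were then quantile normalized. Between 66.0% and 69.9% of probes were well above background per array, and 8 arrays limit the precision. Accessions could be matched to gene names for 32994 probes (58.3%).

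Genotypes were compared with lmFit and eBayes (R 4.3.3, limma 3.58.1) and Benjamini-Hochberg adjustment over all retained probes. The methods' own test (local pooled error) was rewritten (bin 0.01, spline of 10 degrees of freedom). On simulated data for this comparison (37075 probes), limma recovered 65% of 100 changes of 2-fold and 95% of 100 changes of 4-fold with 8 false calls. The rewritten test recovered 75% and 100%, with 172 false calls. Simulated noise was drawn separately for each probe and array. The simulation thus left out any pattern shared between probes, such as the first component, and its counts may not hold for these arrays. Correlations used exact permutation of all pairings.

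The members, lists and tests were chosen with earlier results of these data known. Named were the members, list genes that were called or the 2 of each list with the largest absolute fold change, Abcc4, the 5 probes most like Dbp, called genes beside a member and cell markers by list. Alternatives were cyclic loess, scaling by the 75th percentile, normexp on median signals (offset 50), other filters, the deposited table, other tests, the sample number as a block and arrays left out. Same-numbered arrays did not pair (1 of 4 correlations above 0.1).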

Additional observations from a re-analysis of the deposited data

Results flagged for a closer look

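Of 64 groups of 4 arrays screened, 3 held an array far from the other 3 (4.69%, where chance gives about 1 in 20). Clock (A_55_P2746404) was at 12.68 on wild-type 1 and between 12.49 and 12.51 on the other wild-type arrays, a gap of 0.913 of the group's range. Ier2 (A_51_P481325) was at 9.63 on Mrp4-null 4 and between 9.35 and 9.40 on the other arrays of that label, a gap of 0.837 of the range. The signal's 75th percentile was 678 on Mrp4-null 2 and between 1000.0 and 1058 on the other arrays of that label, a gap of 0.846 of the range. No probe of the 10 clock genes had such an array at the probe with the highest mean signal.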

How the results depend on the processing

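No clock probe was called under any alternative, each array left out included. The number of all probes called was 202, and it was 699 by fold change alone, 71 with the sample number as a replicate block, 128 without the array of the lowest 75th percentile in each genotype (an alternative chosen after seeing the data) and 117 to 188 with single arrays left out (117 without wild-type 4, 129 without wild-type 3 and 131 without wild-type 2). Samples with the same number correlated from -0.685 to 0.409 in their deviations. No Mrp4-null array correlated best with its own number, and of the wild-type arrays only wild-type 4 did. Of the 10 relations with Arntl, 0 passed, against 1 with a shift to the 75th percentile (Nr1d2, r = 0.854), 1 with cyclic loess (Nr1d2, r = 0.830) and 0 to 1 with single arrays left out (Nr1d2, r = 0.897 without wild-type 1). Of the log2 fold changes near 0, some turned sign. Without the lowest array of each genotype they were 0.067 for Cry1 (A_52_P420500), 0.0063 for Nr1d2 (A_52_P303891), 0.0056 for Per2 (A_55_P2737144) and -0.025 for Per3 (A_55_P2752088). With normexp they were 0.0030 for Cry2 and -0.012 for Tef (A_52_P485573), and with the shift to the 75th percentile -0.014 for Dbp (A_51_P180492) and -0.031 for Tef (A_52_P485573). With single arrays left out they ran from -0.16 to 0.055 for Arntl, -0.34 to 0.026 for Bhlhe40, -0.26 to 0.098 for Cry1 (A_52_P420500), -0.050 to 0.033 for Cry2, -0.034 to 0.015 for Dbp (A_55_P2032079), -0.14 to 0.37 for Hlf, -0.14 to 0.042 for Nr1d1, -0.18 to 0.12 for Nr1d2 (A_52_P303891), -0.22 to 0.092 for Nr1d2 (A_55_P2911007), -0.19 to 0.047 for Per2 (A_52_P536869), -0.11 to 0.037 for Per2 (A_55_P2737144), -0.078 to 0.20 for Per3 (A_55_P2752088), -0.42 to 0.021 for Tef (A_52_P173309) and -0.023 to 0.025 for Tef (A_52_P485573). The cause was not tested. Ier2 was called with an intensity trend and robust variances (adjusted p = 0.0435), and over its alternatives the adjusted p ran from 0.0435 to 0.892. All 18 clock probes were well above background on each array, though some were dim. The second Per2 probe, A_52_P536869, had processed signals from 19.9 to 31.5. The part of low signal in the values of dim probes was not tested. For 5 of the 18, the 95% interval of the difference reached 1.5-fold, so a difference of that size was not excluded there.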
